A study of Mus musculus with 6 samples.

Results

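The genes described are 9 of the 23279 genes measured on the arrays: the transforming growth factor beta (TGF-beta) ligands Tgfb1, Tgfb2 and Tgfb3, the latent binding protein Ltbp1, the receptors Tgfbr1, Tgfbr2 and Tgfbr3, and the effectors Smad2 and Smad3. They were chosen by gene symbol, with the differences between activated and control arrays already known, so their differences are given as a description without a test. All 9 had 1 probe set each. RNA came from primary limb myoblasts of C57bl6N mice that carried a tamoxifen-inducible Cre under Pax7 control (Pax7-CreERT2) and a beta-catenin (Ctnnb1) allele with a loxP-flanked exon 3 over a wild-type allele. Loss of that exon gives a stable, active beta-catenin. Both groups carried the same alleles. The 3 activated cultures received 4-OH tamoxifen in ethanol and the 3 control cultures ethanol alone, and all had been taken to differentiate by 24 hours in 2% HS after 5 passages in 20% FBS and bFGF at 2 ng/ml. Recombination needs Pax7 activity, and no group received tamoxifen without the floxed allele, so effects of the compound and of recombination cannot be told apart. Whether the independent cultures came from different animals is not given in the sources used here, so errors and p-values cover the spread between these 3 cultures per group, which may be partly technical. Activation of the allele was checked by the submitters with genotyping PCR and Western blots.

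TGF-beta ligands are secreted as latent complexes, in which the propeptide of the ligand holds it inactive and a latent binding protein tethers it to the extracellular matrix. Integrins and proteases release the ligand, which then binds the type II receptor Tgfbr2, often presented by the co-receptor Tgfbr3. The type II receptor phosphorylates the type I receptor Tgfbr1, and Tgfbr1 phosphorylates Smad2 and Smad3, which enter the nucleus with Smad4. In muscle, TGF-beta is known as an inhibitor of myoblast differentiation and fusion and as a driver of fibrosis.

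Values are log2 expression, on which a difference of 1 is a doubling, and n is 3 cultures per group throughout. Array medians lay between 4.08 and 4.37, and SDs over the genes of an array between 1.72 and 2.13, so the deposited values did not have equal distributions and how they were normalized between arrays is not known here. Control replicate 3 correlated with the other arrays across genes at 0.862 to 0.930, against 0.910 to 0.962 among the remaining arrays. Markers of the labelled cell type were present: Pax7, the transcription factor of muscle stem cells, was between 7.08 and 8.39 on the 6 arrays and Myod1, a master regulator of myogenesis, between 8.64 and 10.23. Ctnnb1 itself was at 8.52 ± 0.21 (SD) in control and 8.54 ± 0.54 in activated cultures. Its probe set spans the whole gene, so it is no check of whether exon 3 was lost. Axin2, a feedback target of beta-catenin, was at 4.55, 3.81 and 4.58 on the control arrays and at 5.50, 5.85 and 6.54 on the activated arrays.

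No promoter window was available for Tgfb3, the ligand that differed most between the groups. RefSeq gave windows for other genes of the set (GRCm38.p6, 8 windows of 6 genes). Those of Tgfb1 and Tgfb2 are shown because their mean log2 differences were 0.31 and 1.40, a choice made with the values known. In pair 2 the differences of the 2 ligands were closer, at 0.37 and 0.48. Each window is the 250 bases before the annotated start, 5′ to 3′ in the direction of transcription. The Tgfb1 window is chr7:25686752-25687001 on the plus strand and the Tgfb2 window is chr1:186705990-186706239 on the minus strand. Capitals mark matches on either strand to the CRE core TGACG, the E-box CANNTG, the GC box GGGCGG, the TATA box TATAAA or the TCF/LEF core CTTTGA.
Tgfb1: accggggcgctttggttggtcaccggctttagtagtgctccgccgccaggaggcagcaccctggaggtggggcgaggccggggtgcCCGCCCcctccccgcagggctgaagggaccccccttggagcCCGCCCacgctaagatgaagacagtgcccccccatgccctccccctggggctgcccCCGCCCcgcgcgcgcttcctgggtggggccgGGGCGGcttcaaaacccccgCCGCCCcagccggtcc
Tgfb2: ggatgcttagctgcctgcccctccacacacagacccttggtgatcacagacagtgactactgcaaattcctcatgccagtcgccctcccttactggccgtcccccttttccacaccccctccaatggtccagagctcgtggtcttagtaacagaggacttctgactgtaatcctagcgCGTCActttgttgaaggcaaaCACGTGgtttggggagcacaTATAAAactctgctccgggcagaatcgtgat
The Tgfb1 window held 5 GC boxes and none of the other 4 motifs, and 75.2% of its bases were G or C. The Tgfb2 window held 1 CRE core, 1 E-box and 1 TATA box, which began 72, 51 and 31 bases before the start, and its G and C content was 53.6%. No matches of different motifs overlapped in either window. Among all 32851 promoter windows of this length, 17.8% held a CRE core, 66.2% an E-box, 32.7% a GC box, 12.4% a TATA box and 13.8% a TCF/LEF core, with a median G and C content of 52.4%. A match describes letters in the window and is not evidence of a bound factor. Whether the motifs bear on the differences between the arrays was not tested.

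Of the 3 ligands, Tgfb3 differed most between the groups, Tgfb2 less, and Tgfb1 by less than its spread between cultures. Tgfb3 was at 6.25, 6.95 and 5.56 on control replicates 1, 2 and 3 and at 8.72, 9.10 and 8.11 on the activated replicates. Each activated array lay above each control array, with a gap of 1.16 between the highest control and the lowest activated array. The group means were 6.25 ± 0.70 and 8.64 ± 0.50 (SD), a difference of 2.39 ± 0.41 (SE), or 5.25-fold. Between equally numbered arrays Tgfb3 was higher by 2.47, 2.16 and 2.55, the narrowest relative spread of the 3 ligands. This isoform is known for its part in palate fusion and scar formation.

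Tgfb2, an isoform needed for heart and skeletal development, was at 6.20, 6.88 and 5.12 on the control arrays and at 8.06, 7.35 and 6.99 on the activated arrays. The groups did not overlap, but only 0.12 separated control replicate 2 from activated replicate 3. The means were 6.07 ± 0.89 and 7.47 ± 0.54 (SD) and the difference 1.40 ± 0.48 (SE), or 2.64-fold. It varied between the numbered pairs, at 1.85, 0.48 and 1.87. Without control replicate 3 the difference was 0.93, which is more than 1.5 times smaller.

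Tgfb1, the isoform best known from immune regulation and fibrosis, was at 7.11, 7.30 and 6.12 on the control arrays and at 6.82, 7.67 and 6.99 on the activated arrays. The groups overlapped, and the difference of 0.31 ± 0.38 (SE) was smaller than its error without the replicate block. With the block the SE was 0.27. Tgfb1 was lower in pair 1, by -0.29, and higher in pairs 2 and 3, by 0.37 and 0.87. Its sign turned to -0.05 without control replicate 3, the lowest of its control arrays, and the difference was 0.07 after quantile normalization of the deposited values and 0.06 after cyclic loess. Without activated replicate 2 it was 0.06, and without control replicate 2 it was 0.54.

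The ligands were also compared as ratios within arrays, in which a constant shift of an array cancels but a difference in the spread of its values does not. The log2 ratio of Tgfb3 to Tgfb1 was higher in activated cultures by 2.08, and by 2.76, 1.79 and 1.68 in pairs 1, 2 and 3. The ratio of Tgfb3 to Tgfb2 was higher by 0.99, with 0.62, 1.68 and 0.68 in the pairs. For Tgfb2 over Tgfb1 the shift was 1.09, and 2.14, 0.11 and 1.01 in the pairs. In all 3 ratios each activated array lay above each control array. The 3 ratios are not independent of each other, and how often ratios of other genes separate the groups was not counted. Nothing is read from this separation, since the genes were chosen on this contrast. The ratios show no absolute level of any ligand. After quantile normalization the 3 shifts were 2.07, 0.90 and 1.17.

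**Figure D1:**
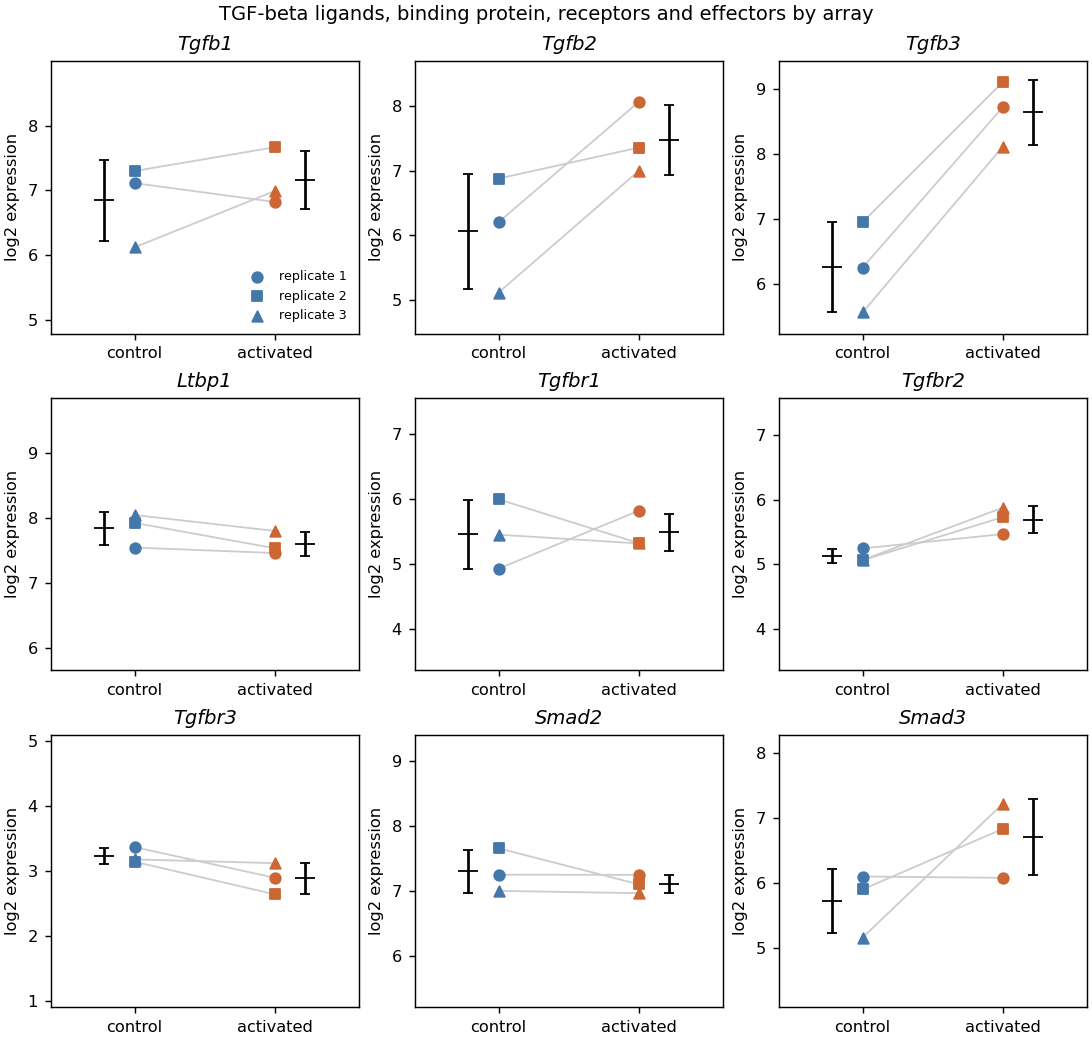
Log2 expression (vertical axis, the same span of log2 units in each panel) of the 9 genes on the 3 control (blue) and 3 activated (orange) arrays; symbols give the replicate number, grey lines join equal numbers, and black bars are the mean ± SD. Tgfb3, Tgfb2 and Tgfbr2 have no overlap between groups upward and Tgfbr3 none downward, while Tgfb1, Ltbp1, Tgfbr1, Smad2 and Smad3 overlap.

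Ltbp1, which tethers latent TGF-beta to the matrix, was at 7.54, 7.92 and 8.05 on the control arrays and at 7.46, 7.53 and 7.80 on the activated arrays. The groups overlapped, although Ltbp1 was lower in each numbered pair. The means were 7.84 ± 0.26 and 7.6 ± 0.18 (SD), a difference of -0.24 ± 0.23 (SE). The size depended on scaling: it was -0.53 after quantile normalization, -0.57 after cyclic loess and -0.11 after median centring. Without control replicate 1 it was -0.39 and without control replicate 3 it was -0.14.

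Among the receptors, Tgfbr2 was higher in activated cultures, Tgfbr1 went both ways between cultures and Tgfbr3 was slightly lower. Tgfbr2, the receptor that binds the ligand first, was at 5.25, 5.06 and 5.07 on the control arrays and at 5.47, 5.73 and 5.87 on the activated arrays. The groups did not overlap, with a gap of 0.22, and the difference was 0.56 ± 0.21 (SE), or 1.48-fold, with control SD 0.10 and activated SD 0.21. It was 0.22, 0.66 and 0.81 in the numbered pairs and stayed between 0.48 and 0.69 under the 3 scalings.

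Tgfbr1, the signalling type I receptor, was at 4.93, 6.0 and 5.45 on the control arrays and at 5.82, 5.33 and 5.32 on the activated arrays. The highest and the lowest array both belonged to the control group. The difference was 0.03 ± 0.32 (SE), and it went both ways in the pairs, at 0.89, -0.67 and -0.13. Its sign also turned after quantile normalization (-0.01) and after cyclic loess (-0.02). Without control replicate 1 it was -0.24 and without control replicate 2 it was 0.30.

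Tgfbr3, the co-receptor betaglycan, was at 3.37, 3.14 and 3.18 on the control arrays and at 2.90, 2.64 and 3.12 on the activated arrays. All 3 activated values were below all 3 control values, but by only 0.02 at the closest. The difference was -0.34 ± 0.22 (SE), and -0.16 after quantile normalization. Without activated replicate 2 it was -0.22. Tgfbr3 lay below the median of all genes on each of the 6 arrays, the only one of the 9 genes to do so, and no detection calls were used here. 

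The effectors had different patterns. Smad3 was at 6.10, 5.90 and 5.16 on the control arrays and at 6.08, 6.83 and 7.22 on the activated arrays. Activated replicate 1 lay just below control replicate 1, by 0.02, and the other activated arrays lay above all controls. The means were 5.72 ± 0.50 and 6.71 ± 0.58 (SD) and the difference 0.99 ± 0.38 (SE), or 1.99-fold. The pairs differed by -0.02, 0.93 and 2.06, so the size of the Smad3 difference rested on pairs 2 and 3. Without pair 3 it was 0.46 and without pair 1 it was 1.5.

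Smad2, the partner effector, was at 7.25, 7.66 and 7.0 on the control arrays and at 7.25, 7.10 and 6.96 on the activated arrays. The groups overlapped, and the difference was -0.20 ± 0.24 (SE), most of it from pair 2 (-0.55). After quantile normalization it was -0.46 and after cyclic loess -0.48. Without control replicate 2 it was -0.02, without control replicate 3 it was -0.35 and without activated replicate 3 it was -0.13. Within arrays, the log2 ratio of Smad3 to Smad2 was higher in activated cultures by 1.19, with -0.02, 1.49 and 2.1 in the pairs, and the groups overlapped in that ratio. After quantile normalization it was higher by 1.29.

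**Figure D2:**
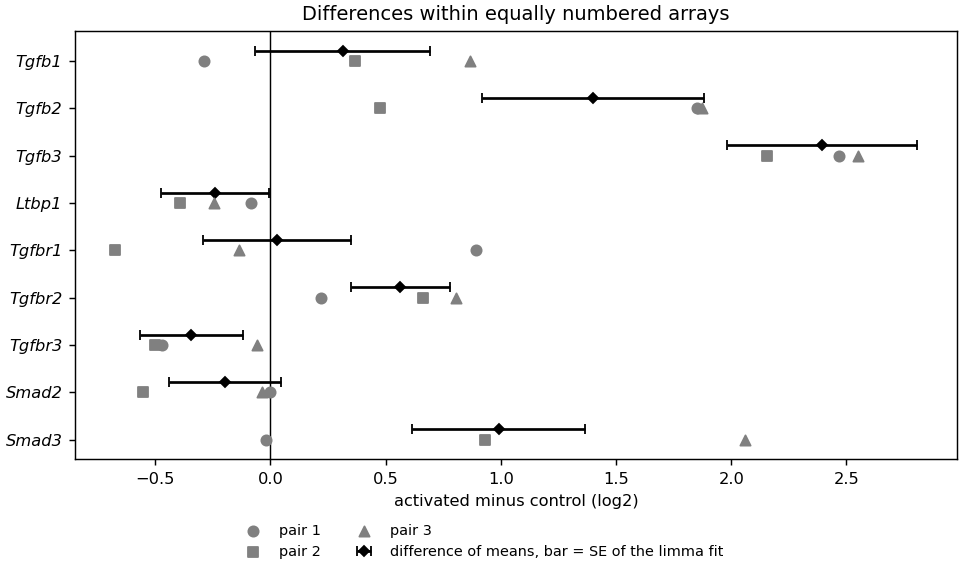
Activated minus control (log2, horizontal axis) for each of the 9 genes; grey symbols are the differences between equally numbered arrays and black diamonds the difference of group means with the SE of the limma fit. The 3 pairs lie close together for Tgfb3 (2.16 to 2.55) and far apart for Smad3 (-0.02 to 2.06) and Tgfbr1 (-0.67 to 0.89).

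Counted together, 6 of the 9 genes were higher and 3 lower after activation, at a median difference of 0.31 against -0.08 over all genes. After quantile normalization the median was 0.07 against -0.01 over all genes. Median centring moved the median of all genes from -0.08 to 0.04. In 3 of the 9 genes each activated array lay above each control array, where 5.4% of all genes did, and in 1 gene each lay below, where 7.4% of all genes did. Nothing is read from these counts, since the genes were chosen on this contrast. In the fit over all 23279 genes (limma with Benjamini-Hochberg adjustment) 0 genes passed an adjusted p of 0.05, or 0%, and the smallest adjusted p was 0.0848. Unadjusted, 1034 genes (4.44%) were higher and 796 (3.42%) lower at p under 0.05, and after median centring 1317 and 537. In the fit that blocks on replicate number, 28 genes (0.12%) were higher and 3 (0.0129%) lower past the adjusted threshold, and Tgfb3 was the 1 of the 9 genes among them. Tgfb3 did not pass in the blocked fit after quantile normalization, or without pair 1 or pair 2. It passed in the blocked fit without pair 3, and in no fit without the block. Since Tgfb3 was chosen with its difference known, these calls are a description and no test of it.

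The genes whose profile over the 6 arrays was most like that of Tgfb3, the gene with the widest range of the 9 (3.55), were Dclk1, Ppargc1a, Srl, Nrap and Suox. Likeness was the root mean square gap between profiles after centring each gene on its own mean, and it was 0.16 for Dclk1, a doublecortin-like kinase, 0.20 for Ppargc1a, a coactivator of mitochondrial genes, 0.22 for Srl, which encodes sarcalumenin, 0.26 for Nrap, a myofibril anchoring protein, and 0.30 for the sulfite oxidase Suox. Their log2 differences were 2.60, 2.13, 2.30, 2.13 and 2.06. All 5 were lowest on control replicate 3 and highest on activated replicate 2, as Tgfb3 was. Dclk1, Ppargc1a and Srl were among the nearest 5 also after quantile normalization and after cyclic loess. Of the other 8 genes of the pathway set, Tgfb2 lay nearest to Tgfb3, with a gap of 0.60 and rank 150 of 23278, followed by Smad3 (0.92, rank 1409).

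**Figure D3:**
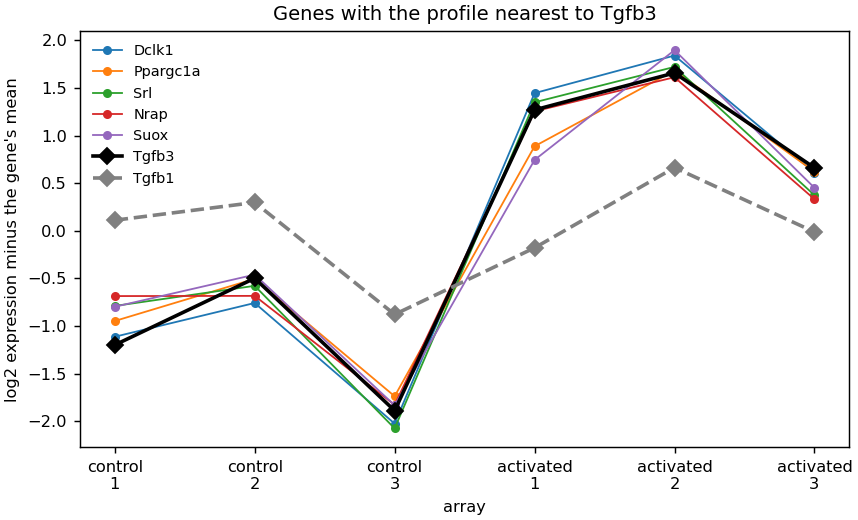
Log2 expression minus each gene's own mean (vertical axis) on the 6 arrays (horizontal axis) for Tgfb3 (black), the 5 genes nearest to it and Tgfb1 (grey, dashed); lines only connect the points of a gene. The 5 genes follow Tgfb3 within root mean square gaps of 0.16 to 0.30, and Tgfb1 does not separate the groups.

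Other cell states moved with the groups. Of 15 myoblast and muscle markers 13 were higher after activation (median difference 1.2 on the log2 scale, and 0.88 after quantile normalization), and their summed linear value was 3710 to 8590 in control and 10893 to 18269 in activated cultures. Actn2, a muscle alpha-actinin of the Z-disc, was at 7.28, 7.87 and 5.11 and at 9.76, 10.02 and 7.90, and the myogenic factor Myog at 8.68, 8.85 and 6.51 and at 9.36, 11.33 and 10.01. The difference of Myog was 2.22, and 1.47 without control replicate 3. As for Tgfb1, Tgfb2, Tgfb3, Smad2 and Smad3, control replicate 3 was the lowest control array for both. The 2 lower markers of this list were Pax7 (-0.60, and -0.90 after quantile normalization) and Ckm (-0.27). Myod1 differed by 0.16, and by -0.20 after quantile normalization, and Myf5 by 0.38. All 9 measured markers of dividing cells were lower, with a median of -1.60 and summed values of 1735 to 3765 in control and 830 to 1510 in activated cultures. Topoisomerase Top2a differed by -2.26 ± 0.50 (SE) and the proliferation antigen Mki67 by -2.26 ± 0.66. In the numbered pairs Top2a differed by -2.60, -3.47 and -0.71 and Mki67 by -2.42, -3.94 and -0.41, least in pair 3. Plk1 was higher in pair 3, by 0.77, and Pcna in pairs 1 and 3, by 0.22 and 0.32. The other dividing cell markers were lower in each pair. The part of these differences in the values of Tgfb3, Tgfb2, Tgfbr2 and Smad3 was not tested. In bulk RNA, fewer cells of a type and less RNA per cell cannot be told apart.

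Markers of other cell types differed less, with directions that depended on scaling for fibroblasts and pericytes, and the log2 scale of the arrays gave none of them a value of 0. Over all genes 13896 of 23279 were lower as deposited. Of 9 fibroblast and fibro-adipogenic markers 8 were lower (median -0.16), and after quantile normalization (median -0.01) 4 and after cyclic loess 5 of the 9 were higher, with summed values of 237 to 346 in control and 154 to 312 in activated cultures; Thy1 differed by 1.17 and Fbln1 by -1.11. Of 7 smooth muscle and pericyte markers 5 were lower (median -0.16), and after quantile normalization (median 0.01) or cyclic loess 4 of the 7 were higher, with summed values of 620 to 1580 and 353 to 630; Rgs5 differed by -1.78 and Abcc9 by 1.26 (0.72 without activated replicate 1, 1.96 without activated replicate 3). Of 9 endothelial markers 7 were lower (median -0.29; summed values 105 to 112 and 81.3 to 98.0), with Esam at -0.37 and Egfl7 at -0.34 (-0.57 and -0.21 without control replicate 2). Of 10 leukocyte markers 9 were lower (median -0.43; summed values 162 to 329 and 144 to 224), with Fcer1g at -0.67 and Csf1r at -0.54. Of the endothelial markers only Vwf and Egfl7 lay above the array median of all genes on any array. Ptprc, Csf1r, Adgre1, Itgam and Tyrobp among the leukocyte markers lay above it on none. The same held for Pdgfra, Lum, Dpt, Pi16 and Tcf21 among the fibroblast markers and for Myh11 and Kcnj8 among the pericyte markers. No detection calls were used, so whether these genes were expressed is not known here. The part of these cell types in the TGF-beta values was not tested.

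The genes that hold or release latent TGF-beta had no settled direction as a list. Of 15 measured, 6 were higher and 9 lower, with a median log2 difference of -0.14 that was -0.01 after quantile normalization, -0.03 without control replicate 3 and -0.27 without activated replicate 3. With dim genes left out it was 0.28, where that of all genes was 0.20. In the list 0 passed over all genes in limma with or without the replicate block, and at an unadjusted p under 0.05 there were 1 higher and 1 lower, where 4.44% of all genes were higher and 3.42% lower. The integrin subunit Itgb6, a chain of an integrin that activates latent TGF-beta, was at 6.91, 6.47 and 6.10 on the control arrays and at 8.20, 8.77 and 6.58 on the activated arrays. The groups overlapped at activated replicate 3, and the difference was 1.36 ± 0.55 (SE; limma, adjusted p = 0.612), and 0.90 without activated replicate 2. Its partner chain Itgav differed by 0.68 ± 0.40, but was lower in pair 2, by -0.27. Without control replicate 3 it differed by 0.26, without control replicate 2 by 1.06, and after cyclic loess by 0.31. On the lower side were Nrros, which tethers latent TGF-beta on myeloid cells and microglia (-0.55 ± 0.22), and the integrin subunit Itgb3 (-0.56 ± 0.27), each lower on every activated array than on every control array. Without control replicate 3 the difference of Itgb3 was -0.35. Itgb3 lay above the array median of all genes on 1 of the 6 arrays.

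Receptor partners and Smad regulators had log2 differences between -0.42 and 0.70. Of 26 measured, 17 were higher and 9 lower, with a median of 0.20. The median was 0.06 with 14 higher after quantile normalization, and 0.33 with 21 higher after median centring. Without control replicate 3 it was 0.11. None passed in limma over all genes (0 of 26, and 0 with the replicate block), and 0 had an unadjusted p under 0.05, against 4.44% higher and 3.42% lower over all genes. The smallest p values on the higher side belonged to Ppm1a, a phosphatase of activated Smads, at 6.78 ± 0.19 (SD) in control and 7.25 ± 0.30 in activated cultures, and to the receptor-associated protein Tgfbrap1, at 4.70 ± 0.62 and 5.37 ± 0.33. In both, each activated array lay above each control array. The difference of Ppm1a was 0.47, and 0.21 after quantile normalization and 0.30 without activated replicate 2, and that of Tgfbrap1 was 0.67, and 0.31 without control replicate 3. On the lower side the inhibitory Smad6 differed by -0.42 ± 0.38 (SE) and the endocytic adaptor Dab2 by -0.31 ± 0.45, a sign that turned to 0.23 without control replicate 2. The difference of Smad6 was -0.12 without control replicate 1, -0.17 without activated replicate 2 and -0.73 without activated replicate 1.

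Known TGF-beta response genes went both ways. Of 24 measured, 13 were higher and 11 lower, with a median log2 difference of 0.10 that moved with single arrays, to 0.07 without control replicate 1, 0.38 without control replicate 3, 0.39 without activated replicate 1, 0.17 without activated replicate 2 and 0.02 without activated replicate 3. With dim genes left out it was 0.68, where that of all genes was 0.20. The split depended on scaling: 14 of the 24 were higher after quantile normalization, 15 after cyclic loess and 18 after median centring. Over all 23279 genes, 12954 were higher after median centring. Tgfbi, Postn and Cnn1, all lower as deposited, lay above the array median of all genes on 0 arrays. None passed over all genes in limma or with the replicate block (0 of 24 in each), and 6 were higher and 1 lower at an unadjusted p under 0.05, where 4.44% of all genes were higher and 3.42% lower. Bhlhe40, a transcriptional repressor, was at 5.89, 4.09 and 5.44 on the control arrays and at 7.13, 6.87 and 7.71 on the activated arrays, a difference of 2.1 ± 0.48 (SE; limma, adjusted p = 0.319). The metalloproteinase inhibitor Timp1 was at 9.27 ± 0.33 (SD) in control and 10.46 ± 0.56 in activated cultures, and at a difference of 0.77 in place of 1.19 after quantile normalization. Snai2, a repressor known from epithelial to mesenchymal transition, was at 8.55, 9.56 and 8.39 and at 7.73, 7.10 and 8.01, lower on each activated array, by -1.22 ± 0.38 (SE). The chromatin protein Hmga2 was at 9.27, 9.17 and 10.79 and at 8.13, 7.83 and 9.47, lower in each pair with overlapping groups, by -1.27, and by -0.75 without control replicate 3. Several of these genes also respond to other signals and to muscle differentiation.

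Smad2 and Smad3 also serve activins and myostatin. Of the listed genes of that branch 1, Fst, passed on the higher side with the replicate block, where 28 of all genes (0.12%) did. The list was fixed with earlier results of these data known, so nothing is read from this count. Of 11 measured, 7 were higher and 4 lower, with a median log2 difference of 0.54 (0.57 after quantile normalization and 0.86 with dim genes left out). In limma 0 passed over all genes and 4 were higher and 0 lower at an unadjusted p under 0.05, where 4.44% of all genes were higher and 3.42% lower. Fst, encoding follistatin, which binds and blocks activins and myostatin, was at 7.02, 6.74 and 6.19 on the control arrays and at 9.41, 9.81 and 9.58 on the activated arrays, with an adjusted p of 0.0848 in limma and of 0.0434 with the replicate block. In the blocked fit Fst, like Tgfb3, did not pass after quantile normalization or without pair 1 or pair 2. Inhba, the activin beta-A subunit, was at 2.85, 2.80 and 3.12 and at 4.10, 4.67 and 4.00, a difference of 1.33 ± 0.26 (SE; limma, adjusted p = 0.252). The type I receptor Acvr1c differed by -0.42 ± 0.23, and by -0.24 after quantile normalization. Inhba lay above the array median of all genes on 1 of the 6 arrays and Acvr1c on 0. The ligand Nodal differed by -0.39 ± 0.29, by -0.18 without activated replicate 2 and by -0.67 without activated replicate 1.

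**Figure D4:**
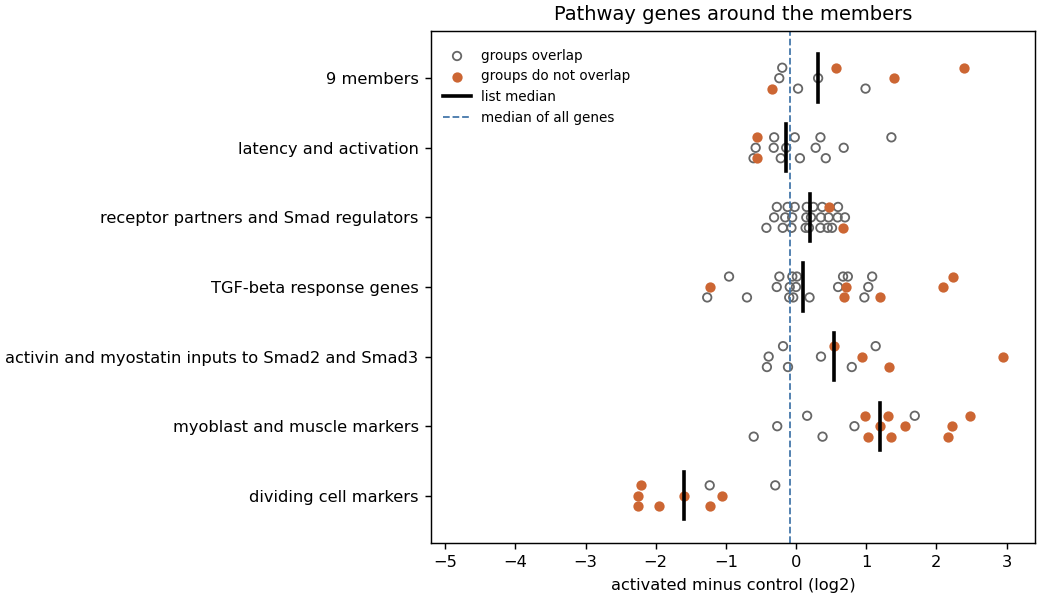
Activated minus control (log2, horizontal axis) for the 9 genes, the measured genes of each pathway list, and the muscle and dividing cell markers; filled points have no overlap between groups, black bars are list medians and the dashed line is the median of all genes (-0.08). The muscle markers lie mostly to the right (median 1.2) and the dividing cell markers to the left (median -1.60), while the 4 pathway lists have medians between -0.14 and 0.54.

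**Figure D5:**
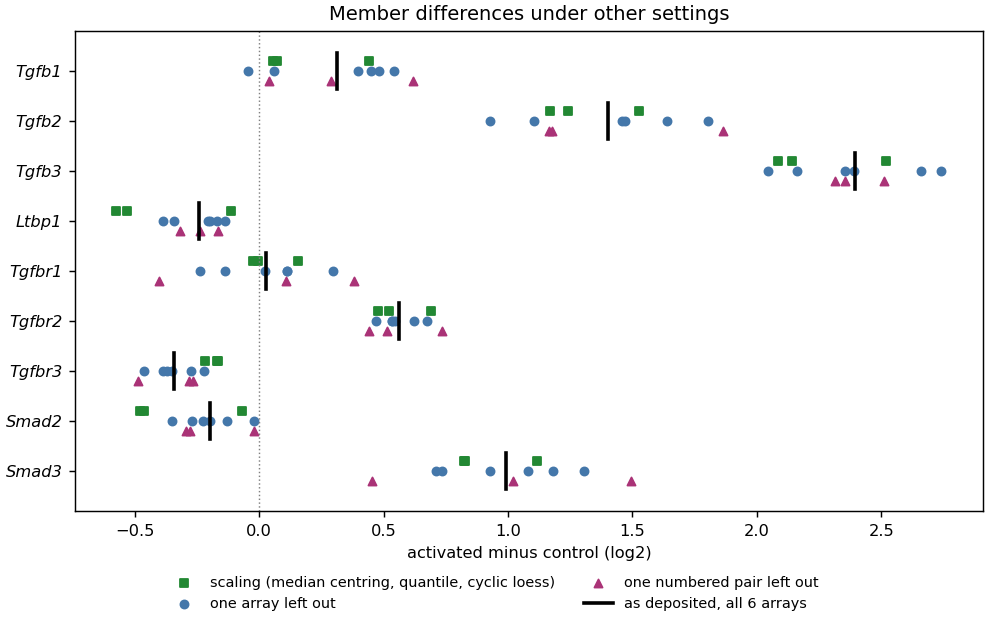
Activated minus control (log2, horizontal axis) for the 9 genes as deposited (black bars), under 3 scalings (green), with 1 array left out (blue) and with 1 numbered pair left out (purple). Tgfb3 stays between 2.05 and 2.74 and Smad3 between 0.46 and 1.5, while Tgfbr1 and Tgfb1 reach both sides of 0.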

How the data were processed

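Gene expression was measured on 6 Affymetrix whole-transcript arrays, 3 control and 3 activated, from 100 ng of total RNA each. The deposited table holds log2 values for 24479 probe sets, and the submitters' processing notes name RMA and Partek with no version or role. No detection calls were used, and the genome build is not given in these sources. The platform annotation gave 1 symbol to 23281 probe sets, several to 0 and none to 1198. Where a symbol had several, the probe set with the highest mean was used, leaving 23279 genes.

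limma 3.58.1 in R 4.3.3 fitted group as the only term, two-sided, with Benjamini-Hochberg adjustment over all genes, after being tested on simulated data. No dim gene was left out. Errors of differences are the fit's SE, and the number of arrays limits the precision. The 9 members and all lists were chosen with earlier results of these data known. Summed linear values add 2 to the power of the log2 value over a list. In the 4 pathway lists, the 2 higher and 2 lower genes with the smallest p are named, and any past the threshold with or without the block; in marker lists, the 2 with the largest difference.

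Deviations from the group means correlated at 0.38, 0.49 and 0.45 between equally numbered arrays, each above 0.1. The numbers in the titles were therefore taken to pair the arrays, and the replicate block is given where it changes a call. Unequally numbered arrays were not compared in this way, so these correlations do not establish that the cultures were paired. The SEs printed are those without the block, except where the block is named. For Tgfb3 the SE was 0.41 without the block and 0.19 with it. Alternatives were the replicate block, 3 scalings, a dim filter at a mean of 5, a trended robust prior and leaving out arrays or pairs.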

Additional observations from a re-analysis of the deposited data

How the results depend on the processing

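With the replicate block 31 genes passed the adjusted threshold and 3875 the unadjusted one, against 0 and 1830 without it. Among the 9 genes the block changed the call of Tgfb3, and among the named genes those of Fst and Actn2. With quantile normalization and the block the counts were 0 and 3201. The blocked fit without pair 1, 2 or 3 gave 0, 0 and 501 adjusted and 2822, 2787 and 3528 unadjusted genes, and 7715, 9121 and 7697 genes without overlap between groups, against 2980 with all arrays; with fewer arrays more genes separate. Leaving out 1 array gave 0 to 28 adjusted genes (28 without activated replicate 3, Tgfb3 not among them), 907 (without activated replicate 2) to 3066 (without control replicate 2) unadjusted genes, and 3880 to 8035 genes without overlap. Leaving out dim genes gave 921 unadjusted genes and 1406 without overlap among the 9001 tested, and the list medians were 0.28 for latency and activation and 0.68 for the response genes; Tgfbr3 was not tested there.

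Tgfb2, Tgfb3, Tgfbr2, Tgfbr3, Smad2, Smad3 and Ltbp1 kept their sign under every alternative run on them. Ltbp1 moved to -0.53 and Smad2 to -0.46 after quantile normalization, with or without the block, and to -0.57 and -0.48 after cyclic loess. Without pair 1 Tgfbr1 was at -0.40 and Tgfbr2 at 0.73. The cause was not tested. Of 30 other named genes 2 turned sign: Dab2 (0.23 without control replicate 2, 0.31 without pair 2, and -0.60 to 0.23 over single arrays left out) and Ctnnb1 (-0.35 after quantile normalization, with or without the block, -0.39 after cyclic loess, -0.0091 without pair 2, -0.28 without pair 3, and -0.17 to 0.33 over single arrays left out).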

Other observations

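Some TGF-beta response and matrix genes were highest on replicate 3 of both groups, which the text above did not describe. Those given here were chosen after their values were seen, and how many listed genes shared the pattern was not counted. Other genes of these lists, Lox, Acta2, Timp1, Bgn and Cdkn1a, had their lowest control value on control replicate 3. The matrix glycoprotein Tnc was at 5.29, 5.75 and 7.92 on control replicates 1, 2 and 3 and at 5.87, 6.29 and 8.81 on the activated replicates, so replicate 3 was the highest of each group. Fibronectin, encoded by Fn1, was at 8.57, 9.44 and 10.32 and at 8.50, 8.89 and 10.80, and the latent TGF-beta activator Thbs1 at 8.23, 8.74 and 10.03 and at 8.55, 8.90 and 10.59. Activated minus control within pairs was 0.58, 0.54 and 0.89 for Tnc, -0.06, -0.54 and 0.49 for Fn1 and 0.32, 0.16 and 0.56 for Thbs1, each below 1, while the SD within groups was 0.88 to 1.59 for Tnc and Fn1 and 0.93 to 1.09 for Thbs1. The mean difference of Thbs1 was 0.35, and -0.01 after quantile normalization and -0.12 after cyclic loess. On the same arrays Tgfb1, Tgfb2 and Tgfb3 were lowest on control replicate 3, which correlated with the other arrays at 0.862 to 0.930. Among the activated arrays Tgfb2 and Tgfb3 were lowest on replicate 3, and Tgfb1 on replicate 1. Whether the ligand and matrix values are related was not tested.

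The TGF-beta feedback genes Smad7 and Pmepa1, also chosen after their values were seen, were higher in each pair, by 0.79, 0.10 and 0.64 and by 0.80, 0.52 and 0.45, with overlapping groups. Their mean differences of 0.51 and 0.59 were 0.23 and 0.25 after quantile normalization. In the same list of regulators, 17 of 26 were higher and 9 lower. Smad6 was lower in each pair, at -0.42, -0.62 and -0.22, and Bambi, Ski, Skil and Smurf1 differed in sign between pairs. The cell cycle inhibitor Cdkn1a was at 9.42, 9.77 and 8.28 on the control arrays and at 10.01, 12.41 and 11.76 on the activated arrays, and was higher by 0.59, 2.63 and 3.48 in the pairs. Myostatin, encoded by Mstn, was at 5.43, 5.86 and 2.84 and at 6.35, 6.76 and 4.42, lowest on replicate 3 of each group.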
